A study of Mus musculus with 47 samples.

Results

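Cytotoxic lymphocyte genes encode the machinery with which T cells and natural killer cells kill other cells. The 8 genes described here are Gzma, Gzmb, Prf1, Nkg7, Ccl5, Ms4a4b, Klrd1 and Klre1, out of 18193 genes with a probe set that names a single gene. They were chosen by name as genes of this programme, with earlier results of these data known. Each was read from the probe set with the highest mean over all 47 arrays. For Prf1 and Ms4a4b there were other probe sets, which stayed near the array floor, between 5.07 and 5.26 on the log2 scale for Prf1 and between 4.95 and 5.19 for Ms4a4b. The NCBI gene identifiers are 14938 for Gzma, 14939 for Gzmb, 18646 for Prf1, 72310 for Nkg7, 20304 for Ccl5, 60361 for Ms4a4b, 16643 for Klrd1 and 243655 for Klre1.

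A cytotoxic lymphocyte stores granzymes, which are serine proteases, in lytic granules together with perforin, which opens the membrane of the target cell to them. Gzma and Gzmb encode the best known granzymes, Prf1 encodes perforin, and Nkg7 encodes a membrane protein of the granules. Ccl5 encodes a chemokine that these cells release, and Ms4a4b a membrane protein of the MS4A family found on mouse T cells. Klrd1 (CD94) and Klre1 encode lectin-like receptors of natural killer cells, and Klrd1 pairs with NKG2 receptors to read MHC class I. Cd3d, a subunit of the T cell receptor complex that natural killer cells lack on their surface, served as the T cell reference here.

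The arrays held RNA of leukaemic spleens from 47 mice, 1 array per mouse, and the labels gave every mouse a terminal undifferentiated myeloid leukaemia. The tumours arose by Sleeping Beauty, a DNA transposon whose insertions drive tumours, and each tumour was labelled with or without an insertion in Erg, whose ETS-type protein regulates genes of blood stem cells. All mice carried 3 alleles: Tg(ACTB-cre)2Mrt, in which an actin promoter drives Cre broadly; a Sleeping Beauty transposon array, either TgTn(sb-T2/Onc2)6113Njen or TgTn(sb-T2/Onc2)6070Njen; and the transposase allele Gt(ROSA)26Sortm2(sb11)Njen. The insertion label was given to 26 tumours, 9 of line 6113 and 17 of line 6070, and 21 tumours had the label without insertion, 12 of line 6113 and 9 of line 6070. The sex label was female for 25 mice and male for 22, and the age label ran from 32 to 97 in a unit the labels did not give. No untreated or healthy spleen was analysed here. Mice are called here by their Erg label and a number, as in insertion 10 or no insertion 19.

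Values are the log2 expression levels that the authors made with the RMA method. Array medians lay between 5.19 and 5.24, and the 25th percentile of all values was 5.08, so a level of about 5.2 is close to the floor of these arrays and a level above 7 is used here as clearly bright. Differences near the floor are compressed and understate changes in RNA. Xist was above 7 in 25 arrays, and by Xist the sex label matched in 23 arrays and did not match in 24. Comparisons of labels are therefore given by label only, while relations between levels do not use the labels. The mean of 8 monocyte and macrophage genes ran from 6.60 to 8.23 over the 47 arrays. Cd3d was above 7 in 9 arrays, and over all arrays its level had a lowest value of 5.24, a median of 5.54 and a highest of 10.23. In bulk tissue, fewer cells of a type and less RNA per cell cannot be told apart.

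Start-site regions were available for 6 of the 8 genes and are shown for the 4 genes that carry the main relations described here, Gzma with Ms4a4b and Gzmb with Nkg7. Each sequence is the RefSeq window of GRCm38.p6 from 250 bases before to 50 bases after the annotated start, written 5′ to 3′ on the strand of the gene, and capitals mark letters searched for in both orientations. For sites of ETS factors the fixed string AGGAAG was searched, for RUNX factors TGTGGT and for T-box factors AGGTGT. For GATA factors it was AGATAA, and for AP-1 factors TGAGTCA. Shorter cores and other forms of these sites were not searched.
Gzma, chr13:113100932-113101231, strand minus: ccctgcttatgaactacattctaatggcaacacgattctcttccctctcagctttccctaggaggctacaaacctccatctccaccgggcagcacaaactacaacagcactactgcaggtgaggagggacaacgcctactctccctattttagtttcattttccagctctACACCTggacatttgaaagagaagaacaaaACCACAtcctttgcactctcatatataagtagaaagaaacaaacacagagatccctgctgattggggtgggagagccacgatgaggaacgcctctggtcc
Ms4a4b, chr19:11443308-11443607, strand plus: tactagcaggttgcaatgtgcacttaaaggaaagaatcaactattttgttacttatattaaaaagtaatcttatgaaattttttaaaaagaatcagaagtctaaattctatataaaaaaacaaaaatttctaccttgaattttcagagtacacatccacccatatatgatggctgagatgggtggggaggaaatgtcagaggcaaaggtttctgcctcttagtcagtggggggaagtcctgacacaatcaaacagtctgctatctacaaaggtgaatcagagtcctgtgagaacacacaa
Gzmb, chr14:56262285-56262584, strand minus: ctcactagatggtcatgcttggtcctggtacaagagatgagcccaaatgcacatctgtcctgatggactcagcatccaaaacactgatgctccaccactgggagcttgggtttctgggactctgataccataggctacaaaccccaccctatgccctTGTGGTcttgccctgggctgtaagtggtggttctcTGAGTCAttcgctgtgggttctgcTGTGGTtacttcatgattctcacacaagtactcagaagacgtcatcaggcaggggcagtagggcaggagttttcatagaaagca
Nkg7, chr7:43436888-43437187, strand plus: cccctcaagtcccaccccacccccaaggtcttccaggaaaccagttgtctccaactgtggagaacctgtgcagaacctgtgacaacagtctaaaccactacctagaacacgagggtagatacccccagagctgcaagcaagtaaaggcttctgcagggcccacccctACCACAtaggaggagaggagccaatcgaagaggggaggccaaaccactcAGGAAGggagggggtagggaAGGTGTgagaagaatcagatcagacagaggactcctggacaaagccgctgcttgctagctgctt

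Klre1 had 2 windows and the other 5 genes 1 each, so counts of genes and shares of windows are on different bases. TGTGGT occurred in 5 of the 6 genes with a window (Gzma, Gzmb, Prf1, Nkg7 and Klre1), and 16.8% of the 32851 windows of 300 bases in the table held it. Gzmb had it at -93 and -34 from the start, Gzma at -50 and Nkg7 at -83. The Ms4a4b window held none of the 5 strings as searched. AGGTGT occurred in 3 of the 6 (Gzma, Prf1 and Nkg7), against 13.7% of all windows, and AGGAAG in 3 (Prf1, Nkg7 and Klre1), against 35.4%. TGAGTCA occurred in Gzmb alone, against 5.2% of all windows, and AGATAA in none of the 6, against 11.2%. No matches overlapped one another in these windows. They are matches of letters and describe the sequence only.

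The 8 genes were not bright together. In 29 of the 47 arrays none of them was above 7, in 12 arrays 1 was, in 3 arrays 2 were, in 2 arrays 3 were, and in insertion 10 there were 5. Prf1, Klrd1 and Klre1 never passed 7, so 5 was the highest number any array reached. The arrays with 3 were insertion 22, with bright Gzma, Gzmb and Ms4a4b, and no insertion 19, with bright Gzma, Gzmb and Nkg7.

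**Figure D1:**
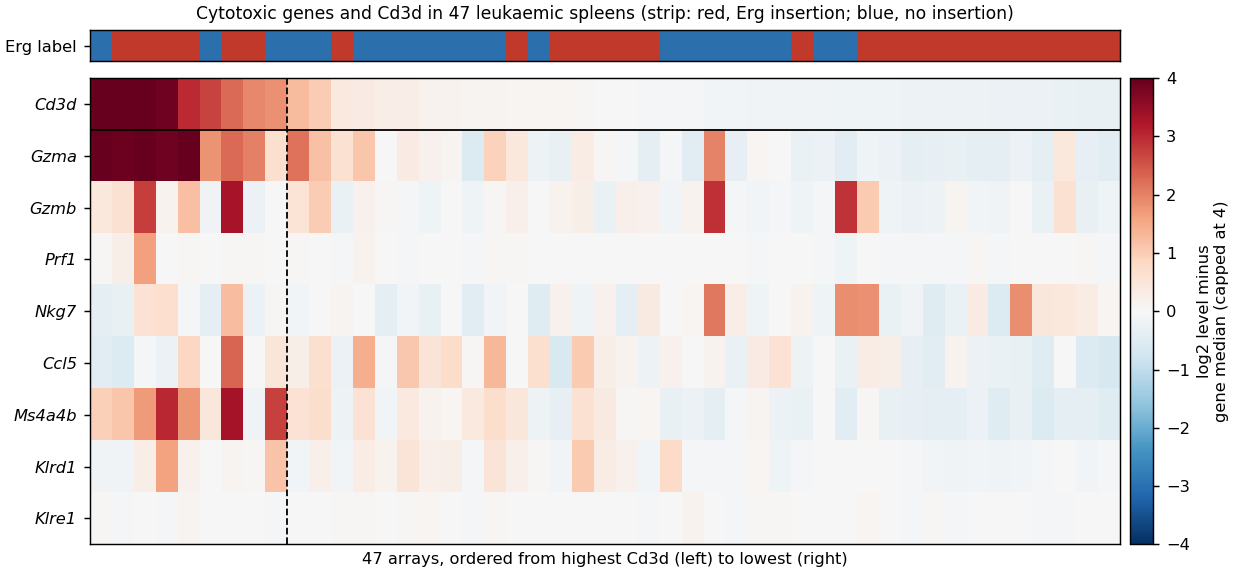
Each column is 1 of 47 mice, ordered from the highest Cd3d level at the left, and each row is a gene; colour gives the log2 level minus the median of that gene over the 47 arrays, capped at 4. The 9 arrays left of the dashed line had Cd3d above 7; 8 of them also had Gzma above 7, while bright Gzmb and Nkg7 lay on both sides of the line and Klre1 stayed within 5.06 to 5.26.

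Gzma, a tryptase-type granzyme, had the widest range. Its level had a lowest value of 5.28, a median of 5.82 and a highest of 10.88 (SD 1.48, n = 47), and it was above 7 in 10 arrays. Gzmb, whose protease starts apoptosis in target cells, had values of 5.20, 5.50 and 8.80 (lowest, median, highest) and was above 7 in 4 arrays. Those 4 were insertion 10 at 8.80, insertion 22 at 8.25, no insertion 19 at 8.42 and no insertion 4 at 8.38, and the next array was at 6.69. Gzmb was thus high in a few mice and near the floor in most, with a gap between them.

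Prf1 stayed between 5.03 and 5.45 in 46 arrays and reached 6.85 in insertion 22. Nkg7 ran from 5.26 through a median of 5.80 to 7.90, with 5 arrays above 7: no insertion 19 at 7.90, insertion 12 at 7.67, no insertion 4 at 7.67, insertion 15 at 7.62 and insertion 10 at 7.05. Ccl5 ran from 5.36 through 6.00 to 8.32 and was above 7 in 5 arrays. Ccl5 was above 6 in 24 arrays, against 20 for Gzma and 10 for Gzmb. Ms4a4b ran from 5.09 through 5.63 to 8.95, also with 5 arrays above 7, and all 5 of these had Cd3d above 7.

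The receptors of natural killer cells were dim. Klrd1 ran from 5.17 through 5.34 to 6.96, with 4 arrays above 6, and Klre1 did not leave the range 5.06 to 5.26. Of 15 further genes of natural killer cells that were measured, none was above 7 in any array, and 8 (among them Ncr1, Klrk1 and Klrc1) never reached 6. The highest value of that list was 6.89, for Klrg1, an inhibitory receptor of experienced T and natural killer cells. Klrd1 and Klre1 therefore give little room for measuring a difference on these arrays.

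The 8 genes differed in their r with Cd3d. Gzma and Ms4a4b followed Cd3d closely, Prf1 did so through a small rise, and Gzmb, Nkg7, Ccl5, Klrd1 and Klre1 did not pass the test. In a limma fit of every gene on the Cd3d level, 3 of the 8 rose with Cd3d at an adjusted p under 0.05 and 0 fell, where 6.91% of the 18177 genes tested rose and 5.01% fell. The median r of the 8 genes with Cd3d was 0.29, and that of all genes was -0.060.

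Gzma reached a lowest value of 6.46, a median of 9.71 and a highest of 10.88 in the 9 arrays with Cd3d above 7, against 5.28, 5.62 and 8.01 in the 38 arrays with Cd3d at most 7. The sets overlapped between 6.46 and 8.01, since no insertion 6 (6.46), no insertion 1 (7.61) and insertion 4 (7.84) had less Gzma than no insertion 8 (8.01), whose Cd3d was 6.79. Per log2 unit of Cd3d, Gzma rose by 0.97 ± 0.060 (SE; r = 0.92, rho = 0.78, adjusted p = 1.98e-17, limma; permutation p = 1e-05 for both, the smallest the 100000 resamples can give). Within the 9 arrays r was 0.78, and within the other 38 it was 0.70. It was 0.92 within each of the 2 transposon lines.

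Ms4a4b reached 5.47, 7.32 and 8.95 (lowest, median, highest) in the arrays with Cd3d above 7, against 5.09, 5.42 and 6.33 in the rest. It rose by 0.46 ± 0.065 per unit of Cd3d (r = 0.72, rho = 0.84, adjusted p = 8.19e-07, limma; permutation p = 1e-05 for both). Among the arrays with Cd3d at most 7, r was 0.67, but among the 9 above 7 it was -0.090: the brightest Ms4a4b arrays, insertion 10 and insertion 19, had Cd3d levels of 7.79 and 9.42, and no insertion 12, with the highest Cd3d level of 10.23, had Ms4a4b at 6.58.

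Prf1 rose by 0.091 ± 0.022 per unit of Cd3d (r = 0.52, rho = 0.52, adjusted p = 0.00385, limma; permutation p = 0.0001 for r and 0.00036 for rho). Insertion 22, with Prf1 at 6.85 and Cd3d at 10.02, set most of that slope, which was 0.025 without it and still passed. Insertion 26, with a like Cd3d level of 10.09, had Prf1 at 5.45, and no insertion 12 at 10.23 had it at 5.24. In the 38 arrays with Cd3d at most 7 the test of Prf1 was lost (r = 0.31, adjusted p = 1.00, limma).

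Gzmb had a lowest value of 5.26, a median of 5.90 and a highest of 8.80 in the arrays with Cd3d above 7, against 5.20, 5.46 and 8.42 in the rest, and its r of 0.33 with Cd3d did not pass (adjusted p = 0.121, limma). It fell to 0.19 without insertion 22. Klrd1 had r = 0.25 (adjusted p = 0.276) and r = 0.0575 without insertion 19. Ccl5 (r = 0.016, adjusted p = 0.964), Nkg7 (r = -0.072, adjusted p = 0.824) and Klre1 (r = -0.098, adjusted p = 0.760) did not pass in the same fit. By rank, rho with Cd3d was 0.41 for Klrd1 (permutation p = 0.00399), 0.35 for Gzmb (0.0155) and 0.33 for Ccl5 (0.0230), and 4 of the 8 genes were called in the fit on ranks, as were 1600 of all 18177 genes in either direction. For Ccl5 the pooled r hid opposite values, -0.58 in the 9 arrays with Cd3d above 7 and 0.41 in the 38 others; a difference between these was not tested.

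Of the other genes of the killing machinery, 4 of 18 rose with Cd3d and 1 fell. Those that rose were Ctsw and Ctsc, cathepsin proteases of cytotoxic granules (Ctsc activates granzymes), with Rab27a and Lyst, which act in granule traffic and release; Stx11, a membrane fusion protein, fell. Transcription factors of the cytotoxic programme rose in 5 of 9 cases, among them Tbx21 (r = 0.48, adjusted p = 0.00983) and Id2 (r = 0.51, adjusted p = 0.00452). Genes of T cell identity rose in 11 of 12 cases and coreceptor genes in 3 of 3, where Cd8a had r = 0.86 and Cd8b1 r = 0.86. Cd4, the other coreceptor gene, stayed near the floor, with a median of 5.30 and a highest value of 5.63. Cd8a reached 8.11 and Cd8b1 7.41. Of 8 genes of immature T cells, 7 rose, among them Ptcra (r = 0.81) and Rag1 (r = 0.51), and the part of such cells in the Gzma and Ms4a4b levels was not tested. The mean of these 8 genes ran from 5.45 to 7.59 in the 9 arrays with Cd3d above 7, against 5.16 to 6.46 in the other 38.

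The 5 genes most like Gzma over the 47 arrays were Cd3d, Cd3e, Bcl11b, Ppm1h and Trgv1, with r from 0.91 to 0.92. Cd3e is another subunit of the T cell receptor complex and Bcl11b a transcription factor of T cell commitment. For Ms4a4b they were Ctsw, Ccr9, Icos, Cd160 and Sh2d2a, with r from 0.77 to 0.83; Icos is a costimulatory receptor of T cells. In fits on these 2 levels, 12 of 13 T cell genes rose with Gzma and 12 of 13 with Ms4a4b. Without the 9 arrays with Cd3d above 7 these counts were 7 for Gzma and 2 for Ms4a4b. The genes called in either direction then numbered 102 on the Gzma level, against 2432 over all arrays, and 30 on the Ms4a4b level, against 1965.

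**Figure D2:**
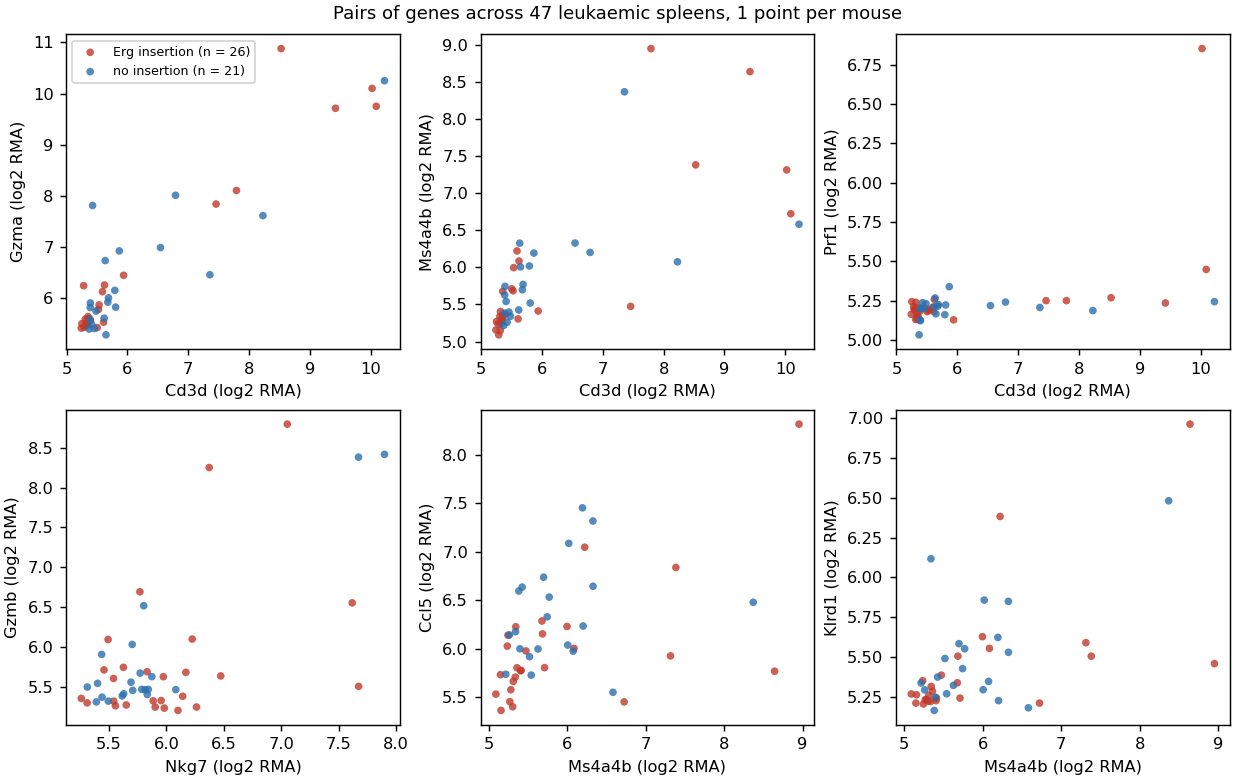
Each point is 1 mouse, red with and blue without the Erg insertion label, and all axes are log2 RMA levels. Gzma rose along the whole range of Cd3d, Ms4a4b scattered among the arrays with Cd3d above 7, and Prf1 left the floor in insertion 22 at 6.85; Gzmb and Nkg7 were both above 7 in 3 arrays, and Ccl5 and Klrd1 are set against Ms4a4b.

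The mutual relations were mostly weak. Of the 28 pairs, 23 had an r above 0, the median r was 0.12 and the median rho 0.26, and r ran from -0.12 to 0.68. A pair was called where each gene passed in the fit of all genes on the level of the other, and 5 pairs were called: Gzma with Ms4a4b (r = 0.68, rho = 0.71), Gzmb with Nkg7 (r = 0.64, rho = 0.27), Ms4a4b with Klrd1 (r = 0.60, rho = 0.52), Gzma with Prf1 (r = 0.49, rho = 0.64) and Ccl5 with Ms4a4b (r = 0.46, rho = 0.49). The larger of the 2 adjusted p-values of each pair, in that order, was 4.10e-05, 0.00188, 0.000885, 0.0265 and 0.0258 (limma). Gzma and Gzmb, the 2 granzymes, had r = 0.44 and rho = 0.44 and passed on the Gzma level (adjusted p = 0.0183) but not on the Gzmb level (adjusted p = 0.0798). Without no insertion 4, where Gzmb was bright and Gzma dim (8.38 and 5.40), 8 pairs were called, the added ones being Gzmb with Gzma, Prf1 and Ms4a4b.

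The background of these fits differed. On the Gzma level 7.26% of all genes rose, on the Ms4a4b level 5.29%, on the Klrd1 level 6.32% and on the Ccl5 level 4.09%. It was 1.88% for Prf1, 0.792% for Gzmb and 0.616% for Nkg7, and no gene rose with Klre1 (0%). In those fits 3 of the other 7 genes rose with Gzma, 3 with Ms4a4b, 1 each with Gzmb, Prf1, Nkg7, Ccl5 and Klrd1, and none with Klre1.

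With Cd3d in the fit, the pairs changed. Gzma with Ms4a4b had a partial r of 0.060 (larger adjusted p = 0.922) and Gzma with Prf1 one of 0.035 (larger adjusted p = 1.00), and neither was called. Gzmb with Nkg7 (0.71), Ccl5 with Ms4a4b (0.65) and Ms4a4b with Klrd1 (0.62) passed in both fits, with larger adjusted p-values of 0.000397, 0.000535 and 0.00118 (limma). The share of all genes that rose given Cd3d was 2.99% on the Gzma level, 0.418% on Gzmb, 0.484% on Prf1, 0.704% on Nkg7, 4.79% on Ccl5, 0.561% on Ms4a4b, 4.95% on Klrd1 and 0% on Klre1.

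**Figure D3:**
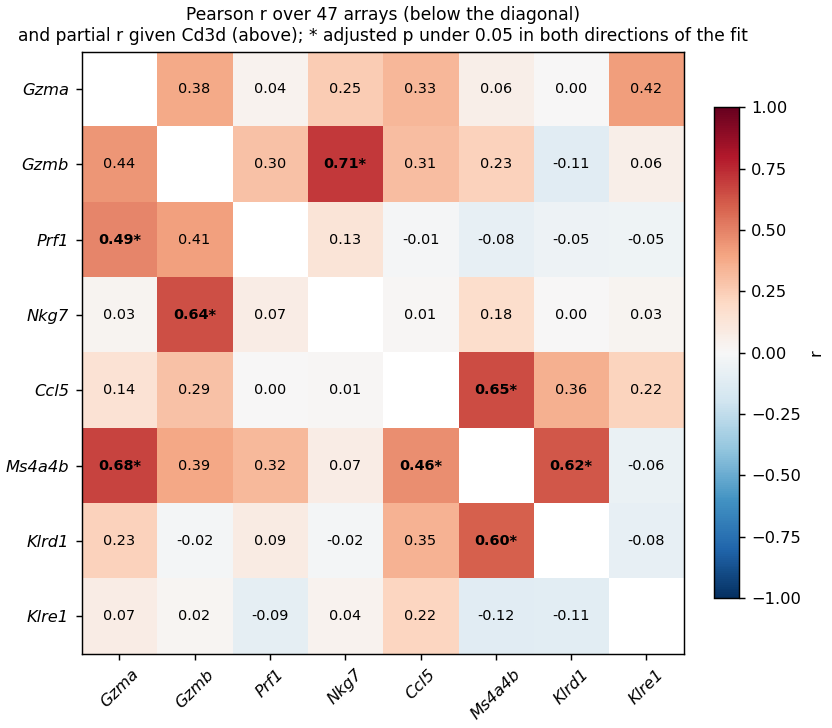
Values below the diagonal are Pearson r of each pair of genes over 47 arrays, and values above it are partial r given the Cd3d level; asterisks mark pairs whose adjusted p was under 0.05 in both directions of the fit. Gzma with Ms4a4b stands at 0.68 below the diagonal and 0.06 above it, and Gzmb with Nkg7 at 0.64 and 0.71.

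Gzmb and Nkg7, a protease and a membrane protein of the same granules, were bright together in 3 arrays, which is 3 of the 4 with Gzmb above 7 and 3 of the 5 with Nkg7 above 7. Of these, no insertion 19 (Gzmb 8.42, Nkg7 7.90) and no insertion 4 (8.38 and 7.67) had Cd3d near the floor, at 5.43 and 5.37, while insertion 10 (8.80 and 7.05) had Cd3d at 7.79. Insertion 12 and insertion 15 had Nkg7 at 7.67 and 7.62 with Gzmb at 5.50 and 6.55. The permutation p was 0.00013 for r and 0.0646 for rho. It did not pass without no insertion 19 (r = 0.56, adjusted p = 0.0608), and r was 0.42 in the 26 arrays with the insertion label and 0.92 in the 21 without, 0.78 in line 6113 and 0.51 in line 6070. In the same order rho was 0.21, 0.42, 0.56 and 0.063, and no insertion 4 and no insertion 19 were the only arrays without the label where either gene was above 7.

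The arrays with bright Nkg7 differed in other genes. Mast cell and basophil genes rose with Nkg7 in 4 of 7 cases: Hdc, which makes histamine (r = 0.63), Ms4a2, a chain of the IgE receptor (r = 0.60), the protease Cpa3 (r = 0.59) and the basophil protease Mcpt8 (r = 0.52). Mcpt8 was at 10.03 in no insertion 19 and 9.71 in insertion 12, against a median of 5.26, and Cpa3 at 9.00 and 8.02 against a median of 5.16; in no insertion 4 and insertion 15 Cpa3 was at 5.27 and 5.18. The mean of the 7 genes ran from 5.17 to 7.24 in the 5 arrays with Nkg7 above 7, against 5.10 to 5.78 in the other 42. The count was 0 of 7 without no insertion 19 and 1 of 7 without insertion 12. Of all genes, 11 and 129 were called there in either direction, against 143 over all arrays. Without both arrays the r with Nkg7 was 0.34 for Hdc, 0.18 for Ms4a2, 0.0995 for Cpa3 and 0.0013 for Mcpt8. No insertion 4 and insertion 15 had bright Nkg7 with Cpa3 near the floor, but not all genes of the list ranked low there. Among the 47 arrays, from the highest, no insertion 4 ranked 4 for Ms4a2 and Hdc, 7 for Cma1 and 8 for Mcpt8 (5.82). It ranked 9 for Fcer1a, 16 for Cpa3 and 34 for Tpsb2. Insertion 15 ranked 4 for Tpsb2, 7 for Fcer1a, 12 for Hdc and 20 for Cpa3. It ranked 21 for Ms4a2 and Cma1 and 37 for Mcpt8. The part of these cells in the Nkg7 level was not tested.

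No gene of the T cell list rose with Gzmb or with Nkg7. With Gzmb, 3 of 9 transcription factors rose: Id2 (r = 0.72, adjusted p = 5.87e-05), Bhlhe40 (r = 0.71) and Tbx21 (r = 0.67, adjusted p = 0.00055), the T-box factor that drives granzyme and interferon genes in cytotoxic cells. Gzmk, another granzyme, also rose with Gzmb (r = 0.60, adjusted p = 0.0039), and stood at 6.88 in insertion 10. Of the natural killer list, 3 of 15 genes rose with Gzmb (Klrb1f, Il18rap and Cd160) and 2 of 15 with Nkg7 (Klrb1f and Il18rap), while Ncr1, the receptor that defines these cells, never passed 5.32. The genes most like Gzmb were Metrnl, Id2, Bhlhe40, Gm32633 and Rapsn (r from 0.69 to 0.77), and those most like Nkg7 were Btnl9, Ms4a3, Surf4, Eml2 and Klrb1f (r from 0.65 to 0.68).

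Ccl5, Ms4a4b and Klrd1 had further relations among them. Given Cd3d, Ccl5 with Klrd1 was not called (partial r = 0.36, adjusted p = 0.102 and 0.0971, limma), unlike the other 2 pairs, and on ranks given Cd3d neither of those 2 was called (larger adjusted p = 0.739 and 0.752). Among the 38 arrays with Cd3d at most 7, r was 0.72 for Ccl5 with Ms4a4b, 0.65 for Ccl5 with Klrd1 and 0.56 for Ms4a4b with Klrd1; the last did not pass there (larger adjusted p = 0.0687, and 0.0782 given Cd3d). Over all arrays, Ccl5 with Klrd1 had r = 0.35 and rho = 0.61 (permutation p = 0.0208 and 1e-05) and did not pass in the fit of levels (adjusted p = 0.117 and 0.0860). Ccl5 with Ms4a4b rested on insertion 10, which held the highest value of both, 8.32 and 8.95: without it r was 0.26 (adjusted p = 0.262), and given Cd3d it was 0.50 (adjusted p = 0.0505). Ms4a4b with Klrd1 was 0.46 without insertion 19, where they stood at 8.64 and 6.96, and passed in each of the 47 fits that left out 1 array.

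B cell genes moved with Ccl5 and Klrd1. Of 7 such genes, 5 rose with Ccl5 (Blnk, Cd79b, Igll1, Ms4a1 and Vpreb1, with r from 0.52 to 0.59) and 6 with Klrd1, the sixth being Cd79a. For the 7 genes the mean level ran from 6.71 to 8.35 across the 5 arrays with Ccl5 above 7, against 5.22 to 8.11 across the other 42. For monocytes and macrophages, genes rose in 4 of 8 cases with Ccl5 (Vcam1, Adgre1, Csf1r and C1qb) and in 3 of 8 with Klrd1, while 0 of 13 T cell genes rose with Ccl5. The part of these cells in the 2 levels was not tested. The genes most like Ccl5 were Acsl4, Maf, Scpep1, Prdm1 and Abi3bp (r from 0.72 to 0.77); Maf and Prdm1 are transcription factors of effector T cells, and Prdm1 also of plasma cells and Maf also of macrophages. Those most like Klrd1 were Gpr174, Slc37a2, Synpo2, Arhgap24 and Gpr18 (r from 0.75 to 0.82).

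Insertion 22 held the one clear perforin signal, which the other Prf1 probe set (at most 5.26) did not show. Some effector genes, picked after their values were seen, were also high in this mouse. Its Prf1 level was 6.85, against at most 5.45 in the other 46 arrays, and Ifng, the interferon of cytotoxic cells, was at 6.65 against at most 5.22. The chemokine Ccl3 was at 6.84 against at most 5.33, the granzymes Gzmc and Gzme at 5.47 and 5.94 against at most 5.13 and 5.11, and Cxcl9, which interferon-gamma induces, at 9.28 against at most 6.66. Cd8a was at 8.11, also the highest of all arrays, and Gzma at 10.10 and Gzmb at 8.25 were among the highest. Klrk1, an activating receptor of natural killer and CD8 T cells, was at 5.55, against at most 5.35. Ccl5 was not high in insertion 22, at 5.93 against a median of 6.00 over all arrays. Fasl of the killing list never passed 5.18 and Tnf of the cytokine list never passed 5.38 in any array.

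The genes most like Prf1 were Ifng (r = 0.96, rho = 0.27), Ccl3 (r = 0.95, rho = 0.23), Gzme (r = 0.93, rho = 0.29), Cxcl9 (r = 0.88, rho = 0.47) and Elavl4 (r = 0.88, rho = 0.31). Without insertion 22, r with Prf1 was 0.15 for Ifng, 0.14 for Ccl3, 0.17 for Gzme and 0.48 for Cxcl9. Chemokine and cytokine genes rose with Prf1 in 5 of 17 cases over all arrays and in 0 of 17 without insertion 22. T cell genes rose with it in 10 of 13 cases, in 8 without insertion 22 and in 0 without the arrays with Cd3d above 7. Of all genes, 368 were called in either direction on the Prf1 level, 260 without insertion 22 and 0 without the arrays with Cd3d above 7. Prf1 with Gzmb had r = 0.41, which was 0.059 without insertion 22.

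Of 18170 genes other than the 8, 0.677% rose with at least 4 of the 8 and 0.0550% with at least 5. Tbx21 and Id2 rose with 5 each (Gzma, Gzmb, Prf1, Ccl5 and Ms4a4b), with r from 0.49 to 0.74 for Tbx21 and from 0.47 to 0.72 for Id2. Without insertion 10, r of Ccl5 with Tbx21 was 0.23, and 2 of 9 transcription factors rose with Ccl5, against 5 over all arrays. Without the 9 arrays with Cd3d above 7, 2 of 9 rose with Gzma and 0 of 9 with Ms4a4b, against 7 and 5 over all arrays. Prdm1 rose with 4 (Gzma, Ccl5, Ms4a4b and Klrd1), as did Cd28, a costimulatory receptor of T cells (Gzma, Prf1, Ms4a4b and Klrd1), and Csf1r, the receptor of macrophage growth factor (Gzma, Ccl5, Ms4a4b and Klrd1). None of these 5 genes passed with Nkg7 or Klre1. The 5 genes most like Klre1 (Met, Syndig1, Slc26a5, Gm11681 and Slc7a2) had r from 0.52 to 0.57 and none passed (adjusted p = 0.337).

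Gzma and Ms4a4b were lower where Erg was higher, and so was Cd3d. Erg itself, read throughout from its probe set with the highest mean, ran from 5.08 through a median of 6.59 to 8.28, with 17 arrays above 7. The other Erg probe set was dimmer, with a median of 5.36 and a highest value of 6.18, and was not used. In the fit of every gene on the Erg level, 2 of the 8 genes fell and 0 rose, where 5.21% of all genes fell and 10.7% rose. Gzma fell by 0.80 ± 0.19 per log2 unit of Erg (r = -0.53, rho = -0.60, adjusted p = 0.00224, limma; permutation p = 0.00011 and 3e-05), and Ms4a4b fell by 0.48 ± 0.11 (r = -0.53, rho = -0.57, adjusted p = 0.00229; permutation p = 5e-05 for both). Cd3d fell by 0.72 ± 0.18 (r = -0.51, adjusted p = 0.00414), as did 12 of 13 T cell genes and 6 of 8 neutrophil genes.

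The arrays with bright Gzma were mostly those with dim Erg. Of the 10 arrays with Gzma above 7, insertion 4 was the only one with Erg above 7, at 7.77, with Gzma at 7.84. The 5 brightest Gzma arrays had Erg between 5.08 and 5.86. With Cd3d in the fit, an alternative added after seeing the data, 0 of the 8 genes fell with Erg, where 2.35% of all genes did. The slope of Gzma was then -0.13 ± 0.099 (partial r = -0.19, adjusted p = 0.459, limma) and that of Ms4a4b -0.20 ± 0.10 (partial r = -0.28, adjusted p = 0.229). Among the arrays with Cd3d at most 7, no gene of the 8 passed (Gzma r = -0.44, adjusted p = 0.0529, and Ms4a4b r = -0.39, adjusted p = 0.108, limma). Of all genes, 1505 passed there in either direction, against 2890 over all arrays. With the first principal component of the arrays in the fit, Gzma and Ms4a4b did not pass either (adjusted p = 0.132 and 0.150); Gzma had r = -0.49 with that component and Erg 0.53.

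Gzmb had r = -0.31 with Erg (rho = -0.54, permutation p = 0.031 and 0.0001) and did not pass over all genes (adjusted p = 0.125). No insertion 4, with Gzmb at 8.38 and Erg at 7.32, went against the rest, and without it r for Gzmb was -0.41 and 3 of the 8 genes were called. The share of all genes called without that array is not given here, so the count is not read as particular to the 8. Prf1 (r = -0.29, adjusted p = 0.153), Klrd1 (-0.30, 0.143) and Ccl5 (-0.27, 0.196) did not pass, nor did Nkg7 (0.10, 0.701) and Klre1 (-0.033, 0.920), all in the same limma fit. Nkg7 was the only gene of the 8 whose r with Erg was above 0.

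**Figure D4:**
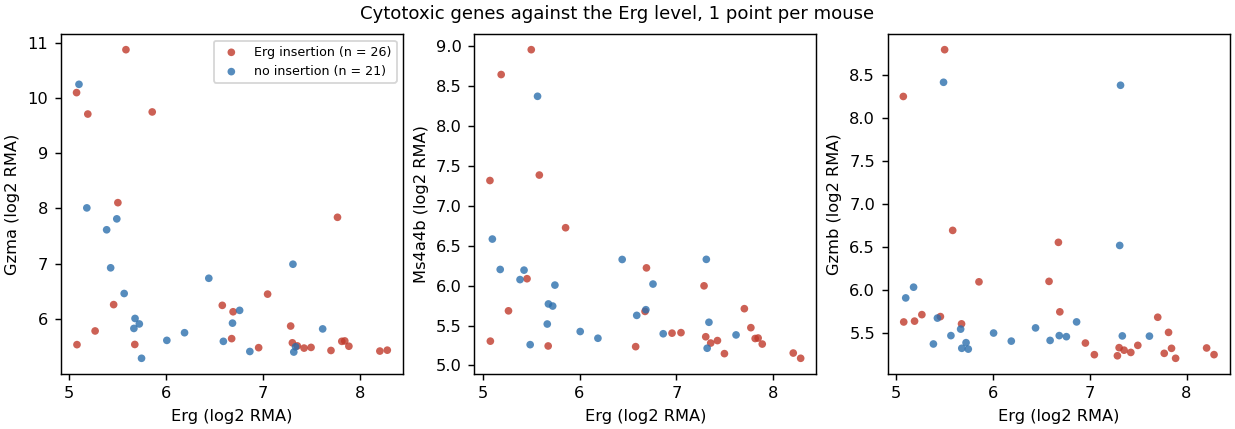
Each point is 1 mouse, with the log2 level of Erg on the horizontal axis and of Gzma, Ms4a4b or Gzmb on the vertical axis, red with and blue without the Erg insertion label. High Gzma and Ms4a4b values lie at Erg levels below 6, apart from insertion 4 with Gzma at 7.84, while no insertion 4 has Gzmb at 8.38 with Erg at 7.32.

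The relation to Erg was also fitted within each label. Within the 26 arrays labelled with an insertion, Gzma (r = -0.57, adjusted p = 0.0229), Gzmb (r = -0.57, adjusted p = 0.0215) and Ms4a4b (r = -0.63, adjusted p = 0.0100) fell with Erg, where 4.12% of all genes fell. Within the 21 arrays labelled without an insertion, none of the 8 fell, where 0.011% of all genes did; Gzma had a similar r of -0.55 there (adjusted p = 0.296), Ms4a4b -0.36 and Gzmb 0.10. The difference between the labels was tested as an interaction, and 0 of 18177 genes passed (0%, limma), with 1006 genes at an unadjusted p under 0.05. Gzmb was one of these (unadjusted p = 0.0366, adjusted p = 0.887).

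None of the 8 genes passed the test between the Erg labels, and Erg itself averaged 6.73 ± 1.08 in the tumours labelled with an insertion and 6.19 ± 0.79 in those without, a difference of 0.56 ± 0.29 (SE) that did not pass (adjusted p = 0.999, limma). Gzma averaged 6.55 ± 1.70 in the tumours labelled with an Erg insertion and 6.43 ± 1.20 in those without (SD, n = 26 and 21), a difference of 0.11 ± 0.45 (SE) after adjustment for line and sex label (adjusted p = 0.999, limma). Its lowest, median and highest values were 5.41, 5.62 and 10.88 with the label and 5.28, 5.92 and 10.25 without. Gzmb averaged 5.81 ± 0.89 and 5.84 ± 0.90, Nkg7 6.03 ± 0.62 and 5.87 ± 0.67, and Ms4a4b 5.91 ± 1.05 and 5.91 ± 0.69, in the same order. The ranges of the groups overlapped for every gene, but not over their whole length. The highest Prf1 value was 6.85 with the label and 5.34 without, and the highest Ccl5 value was 8.32 and 7.45.

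Ccl5 had the largest difference on the lower side, with 6.00 ± 0.62 in the tumours labelled with an insertion and 6.35 ± 0.51 in those without, a difference of -0.28 ± 0.17. Klre1 differed by -0.028 ± 0.013, with an unadjusted p of 0.0428 and an adjusted p of 0.999, on a gene near the floor. Over all 18178 genes the test called 0 (0%), and 666 had an unadjusted p under 0.05 (limma). Restricted to the 23 arrays whose sex label matched, it also called none of the 8 and 0 of all genes. With 23 matches and 24 mismatches, a match does not show that the Erg label belongs to its array. This restricted fit therefore cannot check the result for the Erg label.

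**Figure D5:**
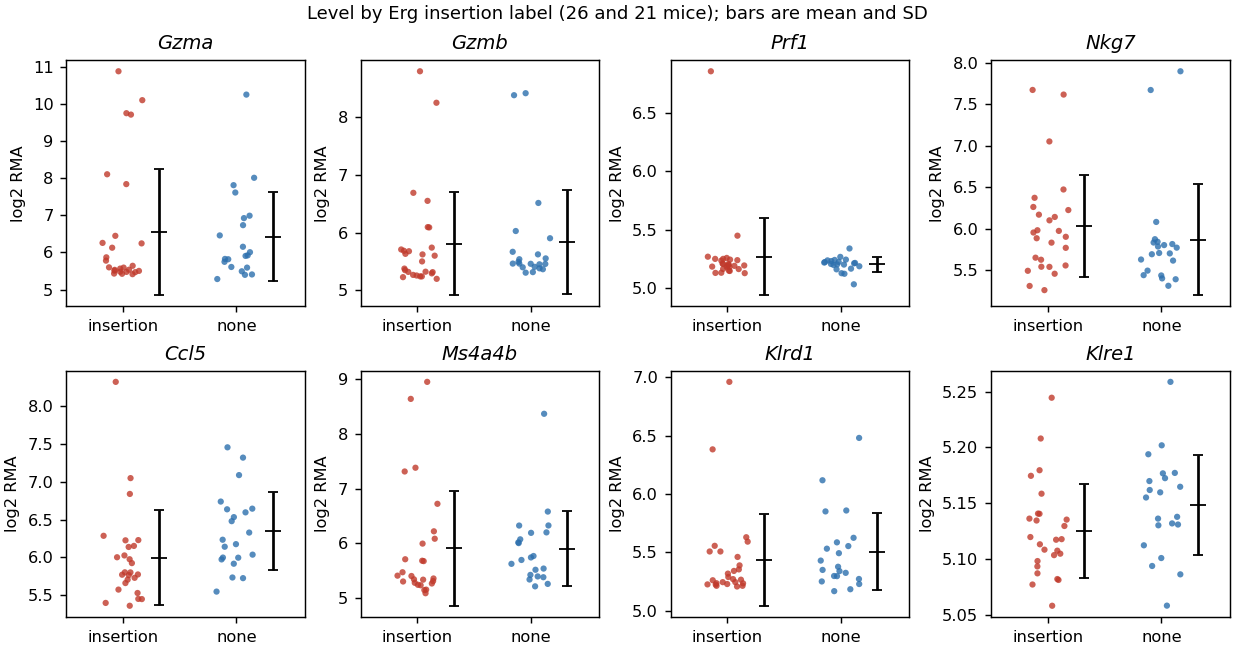
Each panel is 1 of the 8 genes, with the log2 level of each mouse labelled with an Erg insertion (red, left, 26 mice) or without (blue, right, 21 mice), and the bars give mean and SD. The groups overlap in every panel, and single mice such as insertion 22 for Prf1 (6.85) stand far above the rest.

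Between the transposon lines, 6113 minus 6070, differences ran from -0.060 ± 0.075 for Prf1 to 0.26 ± 0.17 for Ccl5, and none of the 8 passed (0% of all genes, limma, with 540 at an unadjusted p under 0.05). Between the sex labels, female minus male, differences ran from -0.14 ± 0.44 for Gzma to 0.14 ± 0.16 for Ccl5, and none passed (0%, with 460 unadjusted). Xist, above 7 in 25 arrays, did not pass there either, so the fit on the sex label could not show a sex difference in the 8. On the age label, slopes ran from -0.0090 ± 0.0074 for Nkg7 to 0.0079 ± 0.010 for Gzmb in log2 units per unit of age, and none passed (0%, with 688 unadjusted). Whether the line, age and Erg labels belong to their arrays was not tested, so these results hold by label only.

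The tumour identifiers carry a number of unstated meaning, which was 7 for 11 arrays, 8 for 3 and 9 for 33. Gzma with Cd3d had r = 0.99 in the first set and 0.93 in the set of 33, and Ms4a4b with Cd3d 0.92 and 0.68. The rho values were 0.69 and 0.82 for Gzma, and 0.81 and 0.82 for Ms4a4b, and in the set of 11 only insertion 22, at 10.02, had Cd3d above 5.69. Gzmb with Nkg7 had r = 0.24 in the set of 11, where insertion 12 has bright Nkg7 without Gzmb, and 0.69 in the set of 33. Gzma with Erg had -0.51 and -0.53. Within the lines, Ms4a4b with Cd3d had r = 0.55 in line 6113 and 0.87 in line 6070, and Gzma with Erg -0.49 and -0.55.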

How the data were processed

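RNA of 47 leukaemic mouse spleens was measured on 1 array each. The authors deposited log2 expression levels of 45101 probe sets made with RMA, and the submitters' processing notes name RMA, affy and R 2.15. Of these probe sets, 34945 named a single gene, which gave 18193 genes, each read from its probe set with the highest mean. Genes above 5 in fewer than 9 arrays were left out, which removed 15 and none of the 8 members. RMA fits all arrays together and compresses values near the floor, and arrays give no read depth, so their number limits the precision.

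Every gene was fitted with limma 3.58.1 in R 4.3.3 on the level of Cd3d, of Erg, of each member (also with Cd3d in the fit) and on each label, with Benjamini-Hochberg adjustment over all genes tested and a threshold of 0.05. The Erg label was fitted with line and sex, the line with Erg label and sex, the sex label with Erg label and line, and age with all of these. Pearson r and Spearman rho had two-sided permutation p-values from 100000 resamples for 45 relations (Python 3.11.15, scipy 1.17.1). The fits were tested on simulated data. Besides the members, Cd3d and Erg, the genes named were the 5 with the highest r with each member and up to 4 of each marker list by their median r; other genes named from the lists or in single arrays were chosen after their values were seen. The members and lists were chosen with earlier results of these data known.

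Groups came from the labels, and each mouse was taken as 1 replicate. Numbers of mice within a group are names and pair nothing, and no 2 arrays were identical (the correlation of 2 arrays lay between 0.903 and 0.991). Alternatives left out each array in turn or the arrays with Cd3d above 7, added covariates, used ranks, another probe set rule or another filter. Start-site windows were RefSeq sequences of GRCm38.p6; those of Ccl5 and Klrd1 were not used here.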

Additional observations from a re-analysis of the deposited data

Results flagged for a closer look

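Within each transposon line and Erg label, groups of 4 to 10 mice were searched for a single mouse standing far from the rest. Of 16 combinations of a gene and a group, 7 had such a mouse, where chance gives about 1 in 20; the combinations are not independent, since insertion 10 gave 3 of the 7 and no insertion 19 gave 2, and values near the floor are skewed. In the 9 mice of line 6113 labelled with an Erg insertion, insertion 10 stood far above the others in Gzmb (8.80, next 6.55), Ccl5 (8.32, next 7.05) and Ms4a4b (8.95, next 6.22). In the same group, insertion 2 stood high in Klrd1 (6.38, next 5.46) and insertion 15 in Klre1 (5.21, next 5.14), the last within the range of the floor. In the 9 mice of line 6070 labelled without an insertion, no insertion 19 stood far above the others in Gzmb (8.42, next 5.67) and Nkg7 (7.90, next 6.08). That array also had the highest 3′ minus 5′ difference of control probes, 2.96, and the highest Mcpt8 level, 10.03. Across the 47 arrays, the r of the 3′ minus 5′ difference with Nkg7 was 0.27 and with Gzmb 0.15, and its part in these values was not tested.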

How the results depend on the processing

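Of the 8 genes, 2 were called with the Erg level, and this count was 0 without the arrays with Cd3d above 7, 0 with the first principal component in the fit, 0 with Cd3d in the fit (added after seeing the data) and 4 on ranks. Of all genes, 2890 were called in either direction in the main fit. In these settings, in the same order, 1505, 740, 1777 and 3462 were. Of the 5 called pairs, 2 were among the 3 called without the arrays with Cd3d above 7 (Gzmb with Nkg7 and Ccl5 with Ms4a4b, beside Ccl5 with Klrd1). With the first principal component 2 pairs were called (Gzma with Ms4a4b and Gzmb with Nkg7), on ranks 8, of which 4 were among the 5 and Gzmb with Nkg7 was not, and after removal of the 2 arrays with the most extreme level 2, of which 1 was (Gzma with Ms4a4b). Given Cd3d, 1 pair was called on ranks (Ccl5 with Klrd1), which was none of the 3. The cause of these changes was not tested. Leaving out 1 array at a time, the counts ran from 3 to 4 for Cd3d, from 2 to 3 for Erg, from 4 to 8 for the pairs and from 3 to 4 for the pairs given Cd3d. The share of all genes called in each of those fits is not given here, so these ranges are not read as particular to the 8. Without no insertion 4 there were 8 pairs and without no insertion 19 there were 4. The counts for the Erg label, line, sex label and age label were 0 in every alternative run for them. The sample titles number the mice within each sex label. With that number as a replicate block the count for the sex label was also 0, although these numbers pair nothing. No gene or pair called in the main fit reversed its direction in any of these alternatives. Pairs that were not called could change sign. Gzmb with Prf1 had r = 0.41 over all arrays and -0.12 in those with Cd3d at most 7, and Nkg7 with Ms4a4b had 0.071 and -0.24. Prf1, Klrd1 and Klre1 lay near the floor in most arrays, which limits what could be measured for them.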
